A study of Mus musculus with 38 samples.

Results

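The interferon-responsive genes described here are a set of antiviral, antigen-transport and signalling genes that mouse cells switch on when interferon binds its receptors. A list of 42 gene symbols defined the set, whatever the values of its members. Of these, 41 were measured among the 21954 genes of the deposited table, and Mx2 was not analysed here. All 41 passed the filter on low counts that left 13786 genes for testing, and every one had a count in each of the 38 libraries.

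Type I and type III interferons signal through receptors whose kinases activate a complex that holds STAT2 and IRF9 and binds the interferon-stimulated response element (ISRE). Interferon gamma acts through the gamma-activated sequence (GAS). In the liver, hepatocytes, Kupffer cells (the resident macrophages), sinusoidal endothelium and lymphocytes can all express these genes, so a level in whole tissue is a sum over cell types. In such bulk libraries, fewer cells of a type and less RNA per cell cannot be told apart.

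Messenger RNA came from the livers of wild-type female C57BL/6 mice under different feeding, and all groups share that genotype, strain and sex. Calorie-restricted mice that missed a meal (CR_missed, 3 libraries, labelled ages of 42 to 44 months) and calorie-restricted mice that were fed (CR_fed, 3 libraries, 39 to 41 months) were both sampled at zeitgeber time 18, the hour of the light cycle. Calorie-restricted mice (CR) gave 2 libraries at 0 h (8 to 9 months), 3 at 6 h (14 to 16 months), 3 at 14 h (23 to 25 months) and 4 at 22 h (32 to 35 months). Fasted mice (F) gave 3 libraries each at 6 h (17 to 19 months), 14 h (26 to 28 months) and 22 h (36 to 38 months). Mice fed freely, ad libitum (AL), gave 3 libraries at 0 h (5 to 7 months), 2 at 6 h (11 to 12 months), 3 at 14 h (20 to 22 months) and 3 at 22 h (29 to 31 months). The labels give neither the degree of restriction nor the event from which hours count. The labelled ages rise along the sample order so that groups share no age; they could not be checked and were not used, and age and group then cannot be told apart. Nothing in the labels states that replicates were separate animals, so p-values measure the spread between samples, which may be technical.

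The promoters of the members carry the binding sequences of the pathway more often than promoters at large. RefSeq windows (build GRCm38.p6) of 250 bases before to 50 bases after the start were matched by symbol to 32 members. The ISRE core GAAANNGAAA, searched on both strands, was in 19 of the 32 (59.4%), against 3.99% of all 27025 genes with a window. The GAS core TTCNNNGAA, which reads the same on both strands, was in 10 of the 32 (31.2%), against 9.55% of all genes. Either motif was in 23 members (71.9%) and in 12.9% of all genes, and the motifs can overlap, as in Bst2. A match is a description of the letters and not evidence of binding.

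The 150 bases before the start are shown for 6 members described in the comparisons that follow. Each runs from 5′ to 3′ on the gene's strand, with ISRE and GAS cores in capitals. Only windows with a core in these bases are shown. Oasl1, Cmpk2 and Irf7, also described below, held neither motif in the windows searched. Irgm1, Isg15 and Rsad2 hold ISRE cores, Irf1 a GAS core, and Igtp and Bst2 both.
Irf1 (chr11:53769864-53770013, plus strand): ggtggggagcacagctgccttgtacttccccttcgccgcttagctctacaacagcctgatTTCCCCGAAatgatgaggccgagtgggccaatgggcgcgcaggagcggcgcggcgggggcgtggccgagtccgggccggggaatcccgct
Isg15 (chr4:156200819-156200968, minus strand): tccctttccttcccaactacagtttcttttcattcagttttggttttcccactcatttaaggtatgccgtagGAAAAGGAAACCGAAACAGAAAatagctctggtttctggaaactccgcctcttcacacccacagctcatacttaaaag
Bst2 (chr8:71537473-71537622, minus strand): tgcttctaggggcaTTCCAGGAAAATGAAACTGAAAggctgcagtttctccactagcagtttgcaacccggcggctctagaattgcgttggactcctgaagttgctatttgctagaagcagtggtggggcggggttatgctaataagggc
Rsad2 (chr12:26456453-26456602, minus strand): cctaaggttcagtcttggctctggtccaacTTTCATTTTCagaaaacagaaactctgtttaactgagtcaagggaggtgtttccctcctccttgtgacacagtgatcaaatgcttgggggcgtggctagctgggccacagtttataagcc
Irgm1 (chr11:48871421-48871570, minus strand): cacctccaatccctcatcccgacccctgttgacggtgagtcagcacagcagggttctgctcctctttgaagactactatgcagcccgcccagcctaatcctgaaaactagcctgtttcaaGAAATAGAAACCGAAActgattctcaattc
Igtp (chr11:58199406-58199555, plus strand): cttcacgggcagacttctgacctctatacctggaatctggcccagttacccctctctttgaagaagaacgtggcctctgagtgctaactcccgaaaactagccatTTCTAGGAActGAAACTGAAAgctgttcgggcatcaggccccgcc
The core nearest to a start among these began 24 bases upstream, in Irgm1, as the end of a pair of overlapping ISRE cores whose first base lay 30 bases upstream. In Isg15, 3 overlapping ISRE cores began 78, 72 and 66 bases upstream. Rsad2 had a single ISRE core, on the opposite strand, 120 bases upstream. Irf1, itself a transcription factor of the pathway, is shown by the one of its annotated windows that held a core.

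Levels differed widely among members. On the authors' rescaled TPM signal, which allows for transcript length, the median over the 38 libraries ran down to 0.416 for Oas3, a sensor that makes the messenger 2′-5′-oligoadenylate, and up to 257 for Bst2, the tetherin that holds budding virus at the membrane. Next came Iigp1 (119), Irgm1 (36.3) and Igtp (32.2), which are immunity-related GTPases (IRG) of the vacuole defence that interferon gamma induces. Irf7 (24.2), Ifi35 (21.0) and Irf9 (20.0) followed. Of the 41 members, the group mean in CPM (counts scaled to a common normalised library size) was highest in AL_6h for 15, in AL_14h for 13 and in F_14h for 6. The mean was lowest in CR_missed for 14, in CR_22h for 13 and in F_22h for 5. The span between the highest and the lowest group mean was 10.2-fold for Tgtp1, 8.52-fold for Zbp1, 7.91-fold for Gbp6 and 7.51-fold for Usp18, and it was smallest, at 1.91-fold, for Irf8.

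The interferons themselves were barely seen. Of 21 interferon genes in the table, 17 had no count in any library, which allows up to 0.00356 CPM over all libraries together, and none passed the filter. Ifng, the gene of interferon gamma, had 42 counts in all, spread over 21 libraries, with 6 in AL_14h 1 as the most. Ifnab, Ifnk and Ifnz had 1, 2 and 3 counts. The intervals and floors here cover counting error only.

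Some libraries stood apart from the group in their label. A profile over the 2000 most variable genes outside the interferon lists placed the libraries labelled CR_6h 3, CR_14h 3 and CR_22h 3 nearest to AL_6h, AL_14h and AL_22h (r of 0.514, 0.661 and 0.367, against 0.195, 0.149 and 0.187 to their own group), and AL_0h 3 nearest to CR_0h (0.633, against 0.034). AL_0h 2 and AL_22h 2 were nearest to AL groups of another time (0.637 and 0.607, against 0.020 and 0.083 to their own group). Some of their clock genes went with that other time. The clock repressor Nr1d1 was at 130.2 CPM in AL_0h 2 against 6.78 and 2.18 CPM in AL_0h 1 and 3. The clock activator Npas2 was at 17.6 CPM in AL_22h 2 against 0.127 and 0.0892 CPM in AL_22h 1 and 3. Nr1d1 in AL_22h 2 stayed with its label, at 21.25 CPM against 16.6 and 12.7 CPM in AL_22h 1 and 3. It was at 1.76 and 2.94 CPM in AL_6h, the group nearest to AL_22h 2. AL_0h 1, AL_6h 1 and F_14h 1 were also nearest to another time of their diet, by smaller margins (0.632, 0.602 and 0.809, against 0.476, 0.576 and 0.727 to their own group). Total counts per library ran from 17131292 to 30152277.

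In 7 of the 13 groups, 1 library of 3 or 4 had the highest value of its group for 32 or more of the 41 members. CR_fed 3 was highest for 40 of 41 members, the library labelled CR_22h 3 for 39, the library labelled CR_14h 3 for 38 and the library labelled CR_6h 3 for 34. Among fasted livers F_6h 3 was highest for 36, F_22h 2 for 36 and F_14h 3 for 32. Over all genes tested, the same 7 libraries were highest for 28.7% (F_14h 3) to 41.6% (CR_14h 3) of genes. Of the 2 AL_6h libraries, AL_6h 2 was the higher for 31 members, against 50.6% of all genes. The library labelled AL_0h 3 went the other way and was lowest for 37 of 41 members, against 34.9% of all genes.

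The median over members of the deviation in log2 CPM from each gene's mean over all libraries gives the same picture. It was 0.43 in the library labelled CR_22h 3, against -1.27, -1.28 and -1.003 in CR_22h 1, 2 and 4. It was 0.43 in CR_fed 3, against -0.50 and -0.44 in CR_fed 1 and 2, although the wider profile of CR_fed 3 was nearest to its own group. Some clock genes set CR_fed 3 apart from CR_fed 1 and 2. Npas2 was at 8.28 CPM against 0.32 and 0.34 CPM, Nr1d1 at 1.365 CPM against 4.67 and 4.25 CPM, and Dbp at 3.14 CPM against 11.3 and 11.0 CPM. The clock genes Arntl (16.8 CPM against 18.4 and 19.8 CPM) and Per2 (50.7 CPM against 45.8 and 62.8 CPM) were closer. Of the 11 AL libraries, 10 lay between 0.30 and 0.81, AL_0h 2 and AL_22h 2 among them, and AL_0h 3 was at -0.34. The 3 CR_missed libraries lay close together, between -0.65 and -0.59.

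**Figure D1:**
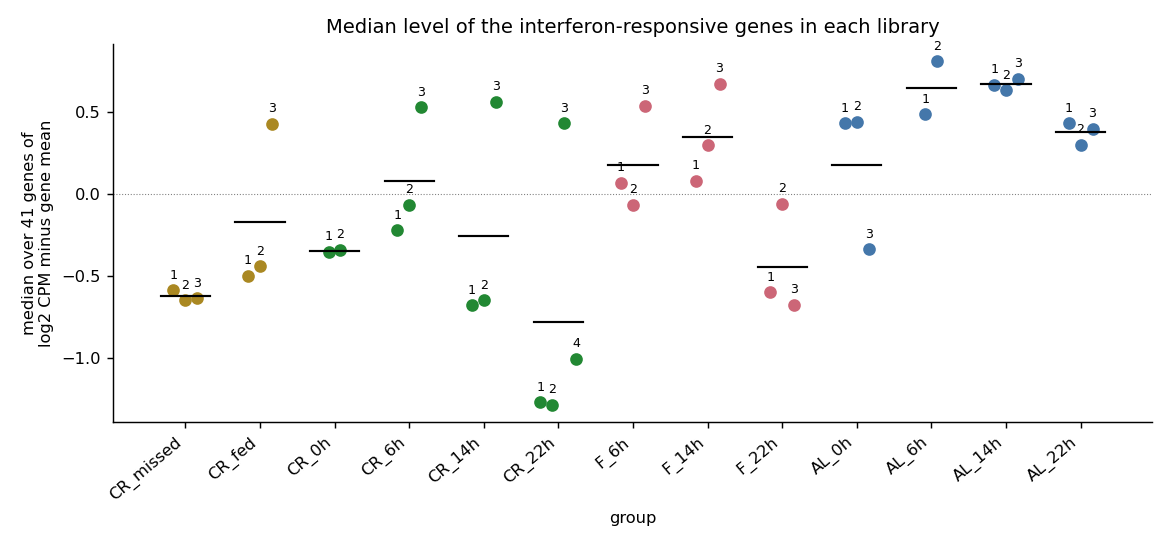
Median over 41 interferon-responsive genes of log2 CPM minus the gene's mean over 38 libraries (vertical axis), with 1 numbered point per library by group (horizontal axis) and bars at group means. The library labelled CR_22h 3 sits at 0.43 above the other 3 CR_22h libraries at -1.28 to -1.003, and AL_0h 3 sits at -0.34 below the other AL libraries.

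**Figure D2:**
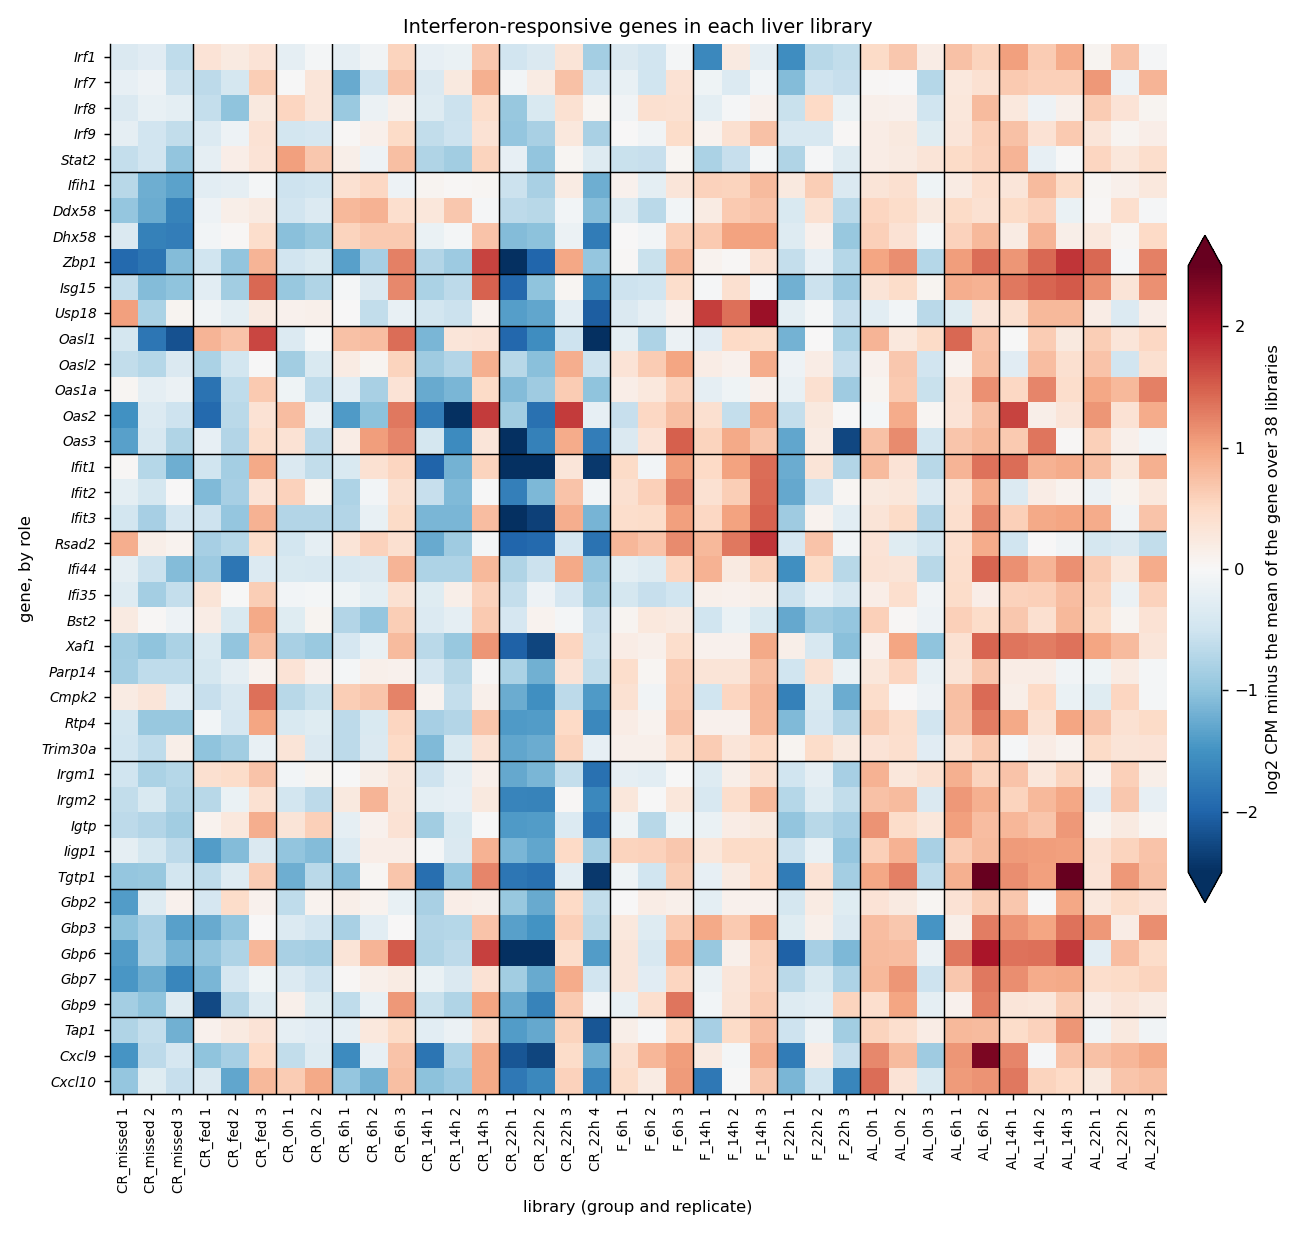
Heat map of log2 CPM minus each gene's mean over 38 libraries, for 41 genes in rows grouped by role and 38 libraries in columns grouped by diet and time; colours saturate at the ends of the scale. Single columns such as CR_fed 3, which was highest of its group for 40 of 41 genes, are warm or cool over nearly all rows.

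The members moved together from library to library. Over the 38 libraries, 819 of 820 pairs of members had a positive Pearson correlation of log2 CPM, with a median of 0.631. These points share libraries, groups and depth, so the correlations are a description. The correlation of a member with the mean of the other members ran from 0.558 for Usp18, the protease that removes ISG15 and damps the type I receptor, to 0.961 for Rtp4, an antiviral zinc-finger protein. The genes outside the set most like the members' mean were Gbp10 (0.897), Mx1 (0.893), Ifit3b (0.887), Rac2 (0.877), Samhd1 (0.873), Samd9l (0.871), Cd79b (0.871), Il2rg (0.862), Pld4 (0.859) and Uba7 (0.858). Rac2, Cd79b and Il2rg are genes of blood cells, and Cd79b was also on the B cell marker list.

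Fasted livers were set against AL livers at each shared time. At 6 h, Igtp was lower in fasted livers and no other member passed the threshold. It had 37.1, 24.8 and 37.0 CPM in F_6h, against 82.2 and 68.3 CPM in AL_6h, a log2 fold change of -1.19 ± 0.30 (standard error derived from the F test; adjusted p = 0.029, edgeR quasi-likelihood test). Every F_6h library lay below both AL_6h libraries. In this test 1.13% of all genes were lower, and 1 of 41 members was. The members' median was -0.57, against -0.02 over all genes, with 38 of 41 below 0 and 20 lower without overlap of the libraries, as were 18.8% of all genes. Beside these values, summed cholangiocyte markers were 15.4 to 28.9 CPM in F_6h and 31.6 to 38.9 CPM in AL_6h, and summed erythroid markers 635 to 960.1 CPM in F_6h and 365 to 563 CPM in AL_6h, and their part was not tested. The call on Igtp was lost, at 0 members called, when any of the 5 libraries was left out, and with a block for replicate number 5 members were called. Shares of all genes called in these fits are not given here. Among pathway genes, Ifngr2, the second chain of the interferon gamma receptor, was higher at 24.5 ± 3.24 CPM in F_6h and 12.2 ± 0.200 CPM in AL_6h (SD, n = 3 and 2; adjusted p = 0.0236, edgeR).

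At 14 h the fasted livers split the set. Usp18 and Rsad2 rose, while Igtp, Irf1 and Bst2 fell. In this comparison 11.8% of all genes were higher and 12.7% lower, so 2 and 3 members of 41 were no more than the background. The members' median was -0.42 (all genes -0.04), with 30 of 41 below 0.

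Rsad2 makes viperin, which blocks viral replication. It had 13.1, 18.6 and 25.7 CPM in F_14h, against 5.20, 7.49 and 6.98 CPM in AL_14h, a log2 change of 1.54 ± 0.39 (adjusted p = 0.00489, edgeR). Usp18 had 27.2, 21.2 and 36.0 CPM in F_14h, against 10.7, 14.2 and 14.3 CPM in AL_14h, a change of 1.10 ± 0.35 (adjusted p = 0.0195, edgeR). For both genes the 3 F_14h libraries lay above the 3 AL_14h libraries, and F_14h 3 was the highest of all 38 libraries.

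Irf1, a transcription factor that interferon gamma induces, had 7.95, 28.9 and 21.0 CPM in F_14h, against 49.8, 38.3 and 47.1 CPM in AL_14h (-1.22 ± 0.33, adjusted p = 0.0074, edgeR). Bst2 had 77.5, 96.4 and 83.0 CPM in F_14h, against 173, 144 and 190 CPM in AL_14h (-0.98 ± 0.32, adjusted p = 0.0234, edgeR). Igtp had 35.9, 45.3 and 47.7 CPM in F_14h, against 70.9, 64.7 and 85.0 CPM in AL_14h (-0.78 ± 0.28, adjusted p = 0.0389, edgeR). For these 3 genes every F_14h library lay below every AL_14h library, and the lowest Irf1 value of the series was in F_14h 1. Only Rsad2 was called in every fit without 1 library. The count of 5 became 3 without AL_14h 1, 3 without AL_14h 3, 2 without F_14h 1 and 2 without F_14h 3. The calls on Irf1, Bst2 and Igtp were all lost without F_14h 1, whose wider profile was nearest to F_22h. With the trend on transcript length removed, Bst2 and Igtp were not called either, and Stat2 was. Over the alternatives tried, the log2 change of Bst2 ran from -1.083 to -0.136, and 10 of 15 kept its call.

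Of 15 genes of MHC class I processing at 14 h, 7 fell and none rose: the immunoproteasome subunits Psmb8, Psmb9 and Psmb10, the activator subunits Psme1 and Psme2, B2m and H2-T23. Psmb10 averaged 11.6 ± 2.13 CPM in F_14h and 53.4 ± 10.6 CPM in AL_14h (SD, n = 3 each; -2.20 ± 0.28 on the log2 scale, adjusted p = 6.46e-06, edgeR). Of 41 measured genes on a list of other interferon-stimulated genes, 5 rose (Eif2ak2, Parp9, Dtx3l, Lgals3bp and Znfx1) and 5 fell (Ifi47, Gbp10, Ube2l6, Ifitm3 and Ly6e), which is close to the 11.8% and 12.7% over all genes. Parp9 and its partner Dtx3l rose by 0.77 ± 0.17 and 0.64 ± 0.20 (adjusted p = 0.00137 and 0.0213, edgeR). Ube2l6, the ISG15-conjugating enzyme, was lower by -1.82 ± 0.32 (adjusted p = 0.000226, edgeR). The receptor kinase gene Jak1 and the RNA sensor gene Tlr8 were higher, by 0.52 ± 0.18 and 2.03 ± 0.64 on the log2 scale, and Irf3 was lower, at -0.62 ± 0.16. Beside these values, 6 of 8 sinusoidal endothelium markers were higher in F_14h, with a summed level of 248 to 307 CPM in F_14h and 75.6 to 177 CPM in AL_14h. Summed B and plasma cell markers were 2.94 to 7.84 CPM in F_14h and 7.92 to 14.6 CPM in AL_14h. Nkg7 of the T and NK cell markers was lower in F_14h, but the sums of that list overlapped (5.44 to 11.4 and 6.64 to 13.55 CPM). Hepatocyte markers summed to 88780 to 107500 CPM in F_14h and 129200 to 140300 CPM in AL_14h, with Ttr called lower and Cps1 higher. Marco of the Kupffer cell markers and Reln of the stellate cell markers were called higher. The part of these cells in the members' values was not tested.

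At 22 h, 7 members fell in fasted livers and none rose, where 5.40% of all genes were lower. They were Isg15, the ubiquitin-like modifier, Irgm1, Igtp, Irf1, Irf7, Ifi35 and Bst2. The members' median was -0.95, against -0.03 over all genes. Of the 41, 39 were below 0 and 25 were lower without overlap, as were 18.4% of all genes. Lymphocyte markers were lower beside them without overlap of the libraries. B and plasma cell markers summed to 4.10 to 6.22 CPM in F_22h and 10.8 to 13.1 CPM in AL_22h, and T and NK cell markers to 6.38 to 8.60 CPM in F_22h and 9.10 to 12.6 CPM in AL_22h. The endothelial marker Lyve1 and the stellate cell marker Reln were called higher in F_22h, and the part of these cells in the members' values was not tested.

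Bst2 had 44.7, 58.4 and 55.7 CPM in F_22h, against 151, 114 and 139 CPM in AL_22h (-1.35 ± 0.32, adjusted p = 0.00638, edgeR). Isg15 had 2.68, 4.33 and 3.34 CPM in F_22h, against 14.0, 7.94 and 14.1 CPM in AL_22h (-1.80 ± 0.55, adjusted p = 0.0295, edgeR). Irf7, the factor that amplifies type I interferon genes, had 14.9, 22.0 and 21.3 CPM in F_22h, against 67.0, 29.2 and 57.1 CPM in AL_22h (-1.40 ± 0.39, adjusted p = 0.0178, edgeR). In Isg15 and Irf7 the library AL_22h 2 was the lowest of the AL_22h group, and no F_22h library reached it.

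Irf1 had 8.30, 15.2 and 16.1 CPM in F_22h, against 25.8, 40.8 and 24.1 CPM in AL_22h (-1.19 ± 0.33, adjusted p = 0.0169, edgeR). Igtp had 20.1, 24.7 and 22.6 CPM in F_22h, against 41.8, 47.0 and 41.6 CPM in AL_22h (-0.95 ± 0.28, adjusted p = 0.0238, edgeR). Irgm1 had 33.5, 40.4 and 26.8 CPM in F_22h, against 50.6, 71.4 and 52.7 CPM in AL_22h (-0.80 ± 0.23, adjusted p = 0.0246, edgeR). The groups did not overlap for these 3 genes. Ifi35, a protein that binds the signalling partner NMI, had 11.9, 15.1 and 13.2 CPM in F_22h, against 25.7, 15.6 and 25.8 CPM in AL_22h (-0.74 ± 0.22, adjusted p = 0.027, edgeR), and F_22h 2 came close to AL_22h 2.

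Only Bst2 was called in every fit without 1 library. Leaving out F_22h 1 gave a count of 1, leaving out AL_22h 1, AL_22h 3 or F_22h 3 gave 3, and leaving out AL_22h 2 gave 4. The count was 11 without AL_0h 2, AL_22h 2 and the 4 libraries nearest to another diet. No share of all genes stands beside the counts of these fits. The proteasome genes Psmb8, Psmb9, Psmb10 and Psme2 were again lower (4 of 15 in MHC class I processing). Ifi47, Ube2l6 and Ifitm3 fell among 41 other interferon-stimulated genes, and Tbk1, a kinase upstream of IRF3, was higher by 0.41 ± 0.12 (adjusted p = 0.0286, edgeR). Whether the fasting effect differed between 6, 14 and 22 h was tested directly. No member passed (1 at an unadjusted p under 0.05, Usp18, adjusted p = 0.421, edgeR; 0 with DESeq2), where 0.0653% of all genes did.

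Calorie-restricted livers were set against AL livers at 4 times. The comparisons share their AL libraries with those of fasting. The members were lower in calorie-restricted livers as medians at every time, at -0.62, -0.58, -0.72 and -0.91 for 0, 6, 14 and 22 h, against -0.01 to 0.01 over all genes. At 14 h and at 22 h all 41 fold changes were below 0. Only the comparison at 22 h called any member.

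At 0 h no member passed (8 at an unadjusted p under 0.05; 2 with DESeq2), where 0.479% of all genes did. The smallest p belonged to Dhx58, Iigp1 and Ddx58. Dhx58, a regulator of the RNA sensor RIG-I, had 3.89 and 4.18 CPM in CR_0h, against 12.4, 10.5 and 7.86 CPM in AL_0h (-1.34 ± 0.40, adjusted p = 0.123, edgeR). Ddx58, which encodes RIG-I, had 15.6 and 17.2 CPM in CR_0h, against 31.6, 30.0 and 26.0 CPM in AL_0h (-0.83 ± 0.29, adjusted p = 0.224, edgeR). Iigp1 averaged 107 ± 5.74 CPM in CR_0h and 285 ± 144 CPM in AL_0h (SD, n = 2 and 3; adjusted p = 0.136, edgeR). Without AL_0h 3, the library nearest to CR_0h, 1 member was called, and 4 without the 4 libraries nearest to another diet. The latter fit leaves out libraries for their likeness to the other diet. Both counts stand without a share of all genes.

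At 6 h no member and no gene passed in edgeR (0% of all genes; 9 members at an unadjusted p under 0.05; 0 members with DESeq2). Cxcl9, a chemokine that draws T cells, Igtp and Tgtp1 had the smallest p. Igtp had 34.5, 43.0 and 51.3 CPM in CR_6h, against 82.2 and 68.3 CPM in AL_6h (-0.81 ± 0.30, adjusted p = 0.994, edgeR). Tgtp1, another IRG protein, had 3.35, 7.36 and 11.7 CPM in CR_6h, against 13.3 and 42.7 CPM in AL_6h (-1.91 ± 0.72). Cxcl9 averaged 7.73 ± 5.41 CPM in CR_6h and 30.0 ± 17.4 CPM in AL_6h (SD, n = 3 and 2; -1.96 ± 0.72). The CR_6h libraries lay below the AL_6h libraries in each of the 3 genes, and the library labelled CR_6h 3 was nearest to AL in each of them.

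At 14 h no member passed (15 at an unadjusted p under 0.05, and 1 with DESeq2), where 0.0218% of all genes did. The 15 stand without the share of all genes at that unadjusted cut. Igtp had 22.0, 30.9 and 39.6 CPM in CR_14h, against 70.9, 64.7 and 85.0 CPM in AL_14h (-1.25 ± 0.28, adjusted p = 0.0875, edgeR). Irgm1 had 33.0, 40.5 and 51.6 CPM in CR_14h, against 78.1, 58.0 and 70.0 CPM in AL_14h (-0.72 ± 0.23, adjusted p = 0.3, edgeR). Irf9, the DNA-binding partner of STAT2, averaged 26.6 ± 10.7 CPM in CR_14h and 45.8 ± 5.83 CPM in AL_14h (SD, n = 3 each; -0.78 ± 0.27, adjusted p = 0.316, edgeR). For Igtp and Irgm1 the library labelled CR_14h 3 was the highest of its group and still below AL_14h. For Isg15 that library had 17.7 CPM, inside the AL_14h range of 15.8 to 18.3 CPM (3 libraries), while CR_14h 1 and 2 had 3.61 and 3.96 CPM. Without the library labelled CR_14h 3 there were 4 members lower (0.516% of genes were lower in that fit), and without the 4 libraries nearest to another diet 21 were lower (2.2% of genes). The last fit leaves out libraries for their likeness to the other diet.

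At 22 h, 10 members fell in calorie-restricted livers and none rose, where 2.31% of all genes were lower. They were Isg15, Usp18, Irgm1, Irgm2, Igtp, Tgtp1, Oasl1, Dhx58, Ifi35 and Cmpk2. The IRG GTPases gave 4 of their 5 members. No library overlap was seen for 11 members, as for 7.89% of all genes in that direction.

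Irgm1, which guards autophagy and the other IRG proteins, had 19.6, 21.4, 31.4 and 12.96 CPM in CR_22h 1 to 4, against 50.6, 71.4 and 52.7 CPM in AL_22h (-1.45 ± 0.22, adjusted p = 0.000245, edgeR). Igtp had 14.9, 15.1, 31.6 and 11.4 CPM in CR_22h, against 41.8, 47.0 and 41.6 CPM in AL_22h (-1.25 ± 0.26, adjusted p = 0.00566, edgeR). Oasl1, an OAS-like protein that restrains IRF7 in mice, had 2.45, 3.25, 6.74 and 1.10 CPM in CR_22h, against 14.9, 12.0 and 14.0 CPM in AL_22h (-1.98 ± 0.42, adjusted p = 0.00696, edgeR). These 3 genes were called in every fit without 1 library, the groups did not overlap, and the library labelled CR_22h 3 was the highest of its group each time.

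Isg15 had 1.54, 3.08, 6.50 and 1.99 CPM in CR_22h, against 14.0, 7.94 and 14.1 CPM in AL_22h (-1.85 ± 0.49, adjusted p = 0.0277, edgeR). Tgtp1 had 1.97, 1.89, 5.94 and 1.27 CPM in CR_22h, against 9.11, 15.3 and 11.9 CPM in AL_22h (-2.10 ± 0.63, adjusted p = 0.0475, edgeR). Dhx58 had 3.78, 3.95, 7.36 and 2.37 CPM in CR_22h, against 9.78, 8.39 and 11.5 CPM in AL_22h (-1.17 ± 0.32, adjusted p = 0.0293, edgeR). In each of these, all CR_22h libraries lay below all AL_22h libraries. Cmpk2, a mitochondrial nucleotide kinase next to Rsad2 on chromosome 12, had 2.45, 1.97, 3.73 and 2.15 CPM in CR_22h, against 4.74, 8.65 and 5.71 CPM in AL_22h (-1.30 ± 0.39, adjusted p = 0.0461, edgeR), also without overlap.

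For the other 3 called members the groups overlapped. Irgm2 had 15.4, 15.1, 49.3 and 15.8 CPM in CR_22h, against 40.0, 77.1 and 42.1 CPM in AL_22h (-1.15 ± 0.34, adjusted p = 0.045, edgeR), with the library labelled CR_22h 3 inside the AL range. Usp18 had 3.09, 3.25, 6.77 and 1.88 CPM in CR_22h, against 9.28, 6.43 and 9.10 CPM in AL_22h (-1.12 ± 0.33, adjusted p = 0.0429, edgeR). Ifi35 had 11.5, 16.0, 12.98 and 9.49 CPM in CR_22h, against 25.7, 15.6 and 25.8 CPM in AL_22h (-0.84 ± 0.20, adjusted p = 0.0169, edgeR). The overlap came from CR_22h 3 against AL_22h 2 for Usp18 and from CR_22h 2 against AL_22h 2 for Ifi35.

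Several members that did not pass were split within CR_22h. Ifit1, which binds viral RNA lacking a host cap, had 1.37, 1.19, 11.4 and 1.66 CPM in CR_22h, against 15.5, 11.2 and 17.1 CPM in AL_22h, and did not pass. Gbp6, a guanylate-binding protein, had 2.10, 2.10, 18.8 and 5.24 CPM in CR_22h, against 11.6, 23.6 and 19.1 CPM in AL_22h, and did not pass. Zbp1, a sensor of Z-form nucleic acid, had 0.686, 1.44, 11.8 and 2.98 CPM in CR_22h, against 16.3, 5.86 and 14.3 CPM in AL_22h, and did not pass. In all 3 genes the library labelled CR_22h 3 lay inside the AL_22h range and the other 3 CR_22h libraries below it. By role, the median log2 change was -1.15 over 3 IFIT genes, -0.78 over 5 GBP genes, -0.86 over 5 OAS genes, -0.95 over 4 sensors, -0.58 over 5 transcription factors and -1.25 over 5 IRG genes.

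The count at 22 h rested on the library labelled CR_22h 3 more than on any other library. Without it 32 of 41 members were lower, among them all 10, with a median of -1.58, where 6.43% of all genes were lower. Without the 4 libraries nearest to another diet 36 were lower (7.92% of genes), which leaves out libraries for their likeness to the other diet. It was 3 when any one of AL_22h 1, AL_22h 3, CR_22h 1 or CR_22h 4 was left out, 4 without CR_22h 2 and 6 without AL_22h 2. It was 0 in a fit to the 7 compared libraries alone (83 genes called in all), and 5 with a replicate block.

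Among the pathway genes at 22 h, Ticam1 and Adar were lower, as were Ifi47, Parp9, Herc6, Nmi, Ifi30 and Znfx1 (6 of 41 other interferon-stimulated genes). No gene of MHC class I processing passed here. Of 11 Kupffer cell markers, 5 were lower (Clec4f, Timd4, C1qa, C1qb and C1qc), and their summed level over the list was 163, 207, 380.5 and 190.4 CPM in CR_22h 1 to 4, against 432 to 587 CPM in AL_22h. The summed B and plasma cell markers were 1.07 to 10.7 CPM in CR_22h and 10.8 to 13.1 CPM in AL_22h. The T and NK cell markers summed to 3.30, 2.88, 11.4 and 4.47 CPM in CR_22h 1 to 4, against 9.10 to 12.6 CPM in AL_22h, so that the library labelled CR_22h 3 alone reached the AL_22h range. Neutrophil markers summed to 0.370 to 10.2 CPM in CR_22h and 5.35 to 13 CPM in AL_22h, and Csf3r among them was called lower. The hepatocyte marker Serpina1e was called lower, with means of 25.4 CPM in CR_22h and 549.5 CPM in AL_22h, while the sums of that list overlapped. Clec4f, Cd5l and Vsig4 were detected in every library of the series, at 32.4, 25.1 and 12.8 CPM or more. The part of these cells in the members' values was not tested.

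**Figure D3:**
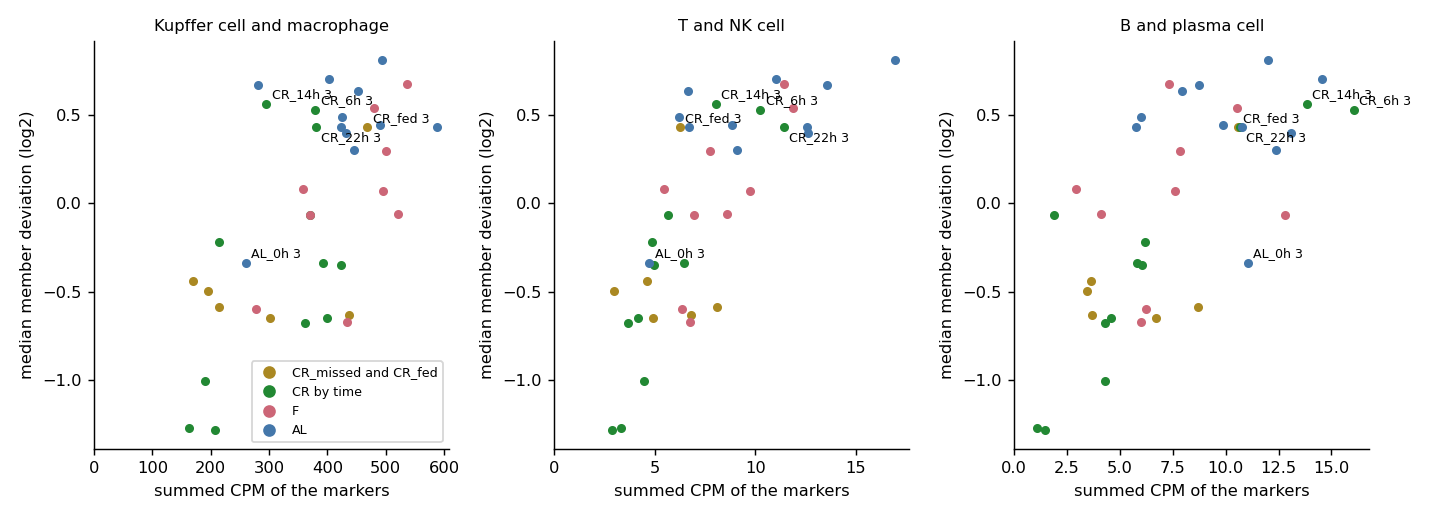
Summed CPM of 3 marker lists (horizontal axes: Kupffer cell and macrophage, T and NK cell, B and plasma cell) against the median deviation in log2 CPM of 41 interferon-responsive genes (vertical axes), 1 point per library, coloured by diet. CR_22h 1 and 2, the lowest in the members at -1.27 and -1.28, had B and plasma cell sums of 1.07 and 1.44 CPM, and the library labelled CR_22h 3 had 10.7 CPM.

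The difference of the calorie restriction effect between 0, 6, 14 and 22 h called no member (6 at an unadjusted p under 0.05; 0 with DESeq2), where 0.442% of all genes were called. The smallest p belonged to Ddx58 (adjusted p = 0.303, edgeR). Without the 4 libraries nearest to another diet, Ddx58 and Stat2 were called. That fit leaves out libraries for their likeness to the other diet, and the share of all genes called in it is not given here. An effect called at 22 h and not at the earlier times is therefore not shown to differ between times.

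**Figure D4:**
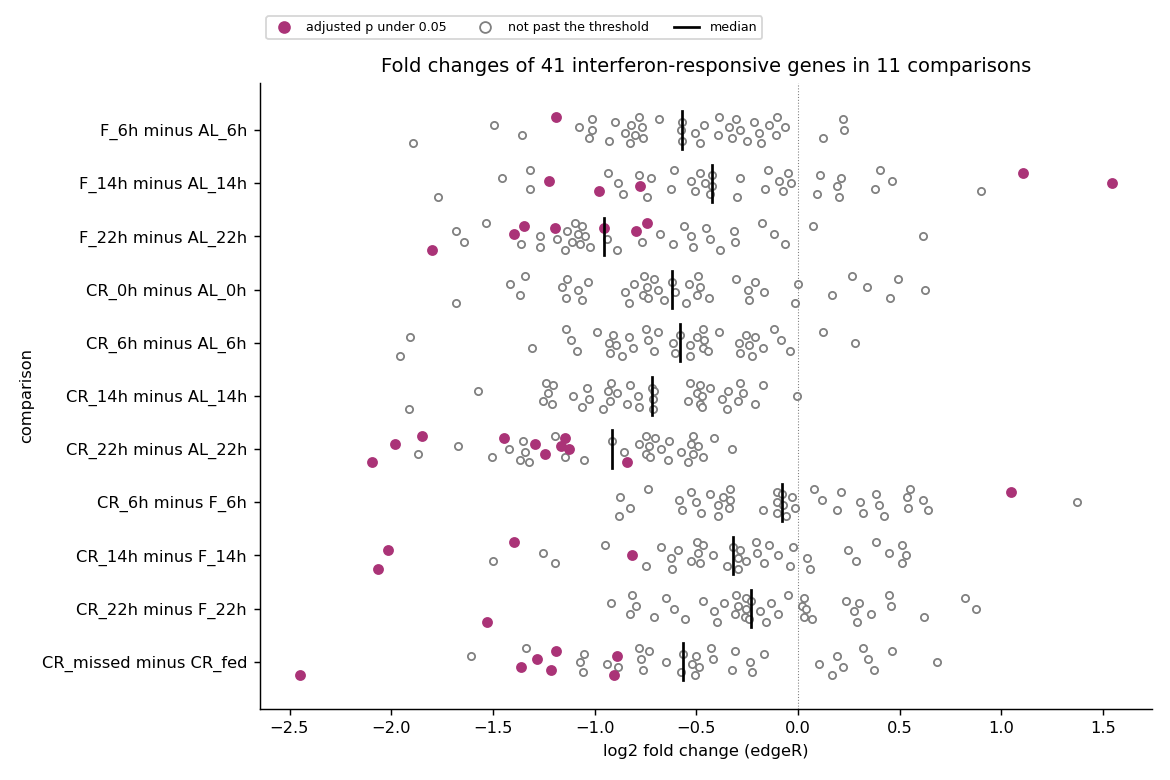
Log2 fold changes of 41 interferon-responsive genes (horizontal axis) in 11 comparisons (rows), 1 point per gene, filled where the adjusted p was under 0.05 in edgeR, with a bar at the median. The median runs from -0.95 (F_22h minus AL_22h) to -0.08 (CR_6h minus F_6h), and called members in the comparison of CR_22h with AL_22h were all lower.

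Livers of calorie-restricted mice that missed a meal were set against those that were fed at the same hour. In the livers after the missed meal, 7 members fell and none rose, where 6.13% of all genes were lower. They were the RNA sensors Ddx58, Ifih1 and Dhx58 (3 of the 4 sensors), the GTPases Irgm1 and Igtp, Oasl1 and Ifi35. The members' median was -0.57, against -0.01 over all genes, with 32 of 41 below 0 and 14 lower without overlap, as were 17% of all genes.

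Ddx58 had 11.2, 9.14 and 6.76 CPM in CR_missed, against 20.0, 24.1 and 25.6 CPM in CR_fed (-1.36 ± 0.26, adjusted p = 0.001, edgeR). Ifih1, which encodes the long-RNA sensor MDA5, had 16.6, 11.6 and 10.6 CPM in CR_missed, against 22.5, 23.1 and 26.2 CPM in CR_fed (-0.89 ± 0.26, adjusted p = 0.0209, edgeR). Dhx58 had 6.29, 2.48 and 2.38 CPM in CR_missed, against 7.76, 8.29 and 11.0 CPM in CR_fed (-1.29 ± 0.35, adjusted p = 0.0146, edgeR). CR_missed 1 was the highest of its group in all 3 sensors and stayed below each CR_fed library.

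Oasl1 had 7.11, 2.71 and 2.09 CPM in CR_missed, against 17.5, 16.1 and 31.0 CPM in CR_fed, the largest fold change of any called member in this comparison (-2.45 ± 0.47, adjusted p = 0.000985, edgeR). Irgm1 had 33.8, 27.5 and 28.9 CPM in CR_missed, against 62.4, 65.3 and 78.0 CPM in CR_fed (-1.19 ± 0.24, adjusted p = 0.00128, edgeR). Igtp had 25.5, 24.2 and 21.9 CPM in CR_missed, against 42.7, 48.0 and 75.5 CPM in CR_fed (-1.22 ± 0.28, adjusted p = 0.00456, edgeR). These 3 genes and Ddx58 were called in every fit tried. Ifi35 had 14.0, 9.65 and 11.4 CPM in CR_missed, against 21.6, 17.3 and 26.6 CPM in CR_fed (-0.90 ± 0.22, adjusted p = 0.00761, edgeR), again without overlap.

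By role, the median log2 change after the missed meal was -1.32 over the 4 sensors, -0.77 over 5 IRG genes, -0.57 over 3 IFIT genes, -0.51 over 5 GBP genes, -0.43 over 5 transcription factors and -0.23 over 5 OAS genes. All 4 sensors, Zbp1 included, were lower without overlap of the libraries, though Zbp1 did not pass the test. Zbp1 had 1.48, 1.61 and 2.77 CPM in CR_missed, against 4.17, 2.96 and 10.8 CPM in CR_fed.

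CR_fed 3, the highest of its group for 40 members, decided part of this count. Without it 4 members were lower and the median was -0.20. With the replicate number as a block the count was 8 over all libraries and 15 in the 6 compared libraries. The counts of these fits, and of the fit without CR_fed 3, stand without a share of all genes and have no background. Ikbke, Traf3, Adar, Tap2, Psmb10, Eif2ak2, Parp10, Nmi and Znfx1 fell among the pathway genes, and Myd88, Tbk1 and Trim25 rose. Ikbke, a kinase that activates IRF3, averaged 4.75 ± 2.24 CPM in CR_missed and 16.4 ± 8.92 CPM in CR_fed (SD, n = 3 each; -1.79 ± 0.36, adjusted p = 0.00133, edgeR). Trim25, the ubiquitin ligase of RIG-I, averaged 129 ± 20.6 CPM in CR_missed and 73.6 ± 7.21 CPM in CR_fed (0.81 ± 0.21, adjusted p = 0.0108, edgeR). Kupffer markers summed to 214, 302 and 437 CPM in CR_missed and to 196, 170 and 468 CPM in CR_fed, and all 4 erythroid genes were higher in CR_missed. Sinusoidal endothelium markers summed to 237 to 266 CPM in CR_missed and 148 to 172.5 CPM in CR_fed, and Clec4g, Pecam1 and Oit3 among them were called higher. Stellate cell markers summed to 277 to 344.5 CPM in CR_missed and 207 to 231 CPM in CR_fed, with Dcn called higher and Des lower. The part of these cells was not tested.

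**Figure D5:**
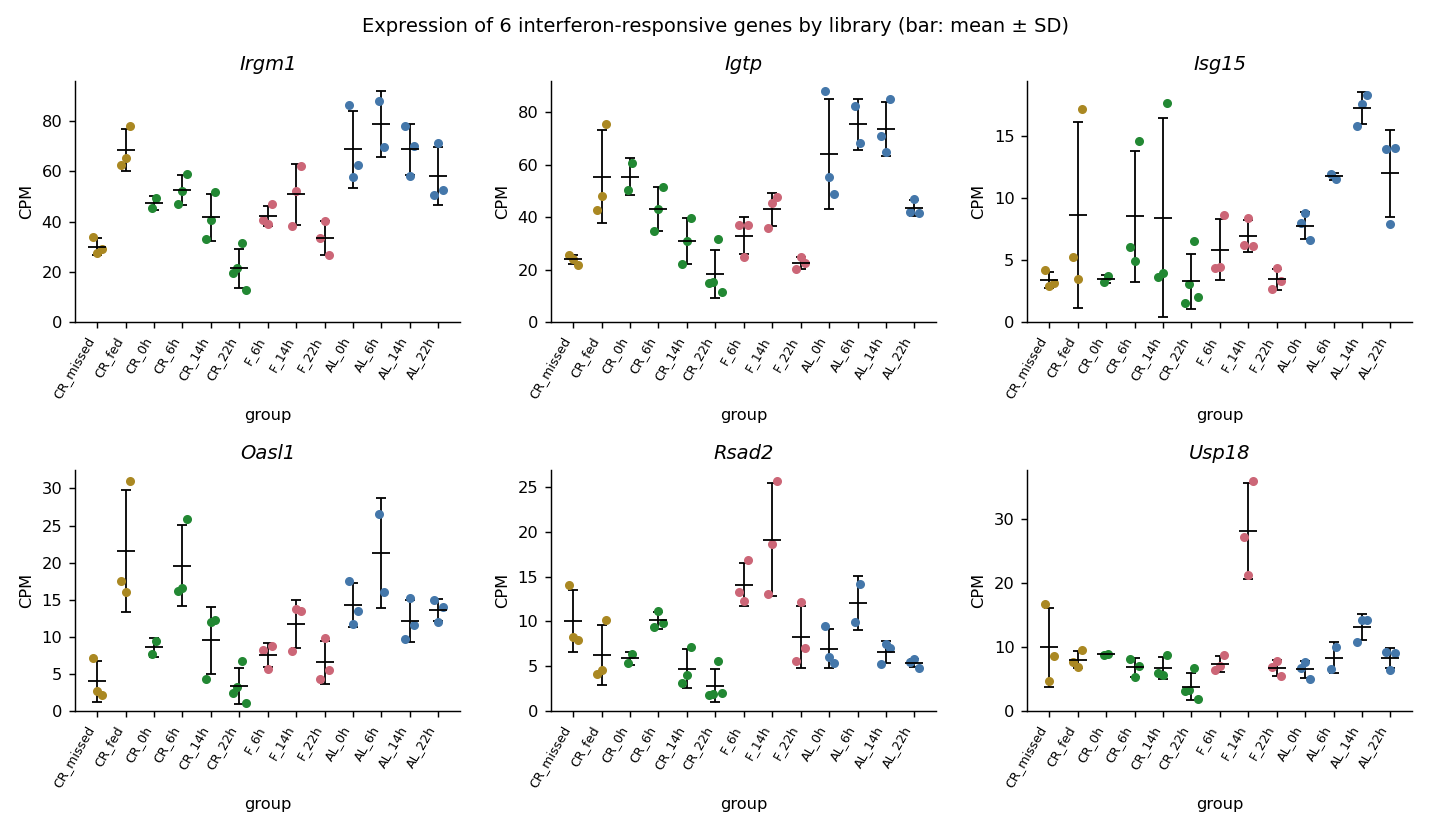
CPM (vertical axes) of Irgm1, Igtp, Isg15, Oasl1, Rsad2 and Usp18 in each of the 38 libraries by group (horizontal axes), with the mean and SD of each group. Usp18 is highest in F_14h at 21.2 to 36.0 CPM, and Oasl1 is at 2.09 to 7.11 CPM in CR_missed against 16.1 to 31.0 CPM in CR_fed.

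Calorie-restricted livers were also set against fasted livers at 6, 14 and 22 h; each group is shared with a comparison above. At 6 h Ddx58 alone was higher, at 38.6, 39.8 and 29.2 CPM in CR_6h, against 17.5, 13.7 and 20.8 CPM in F_6h (1.05 ± 0.26, adjusted p = 0.0111, edgeR), without overlap. In that test 3.39% of all genes were higher. The call was lost without CR_6h 1 or without F_6h 2, at 0 members, and without the library labelled CR_6h 3 the count was 2, 1 in each direction. The members' median was -0.08. Ikbke was higher and Ifngr1, Ifngr2, Myd88, Tbk1 and Trim25 were lower in CR_6h. The hepatocyte marker Serpina1e was called lower, with means of 65.5 CPM in CR_6h and 1160 CPM in F_6h. Its part in the members' values was not tested.

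At 14 h, 4 members were lower in calorie-restricted livers and none higher, where 7.97% of all genes were lower. Usp18 had 5.90, 5.58 and 8.67 CPM in CR_14h, against 27.2, 21.2 and 36.0 CPM in F_14h (-2.06 ± 0.36, adjusted p = 0.000213, edgeR). Rsad2 had 3.06, 3.96 and 7.15 CPM in CR_14h, against 13.1, 18.6 and 25.7 CPM in F_14h (-2.01 ± 0.40, adjusted p = 0.00079, edgeR). Both were called in every fit tried, and the groups lay well apart. Ifit2, which binds viral RNA, had 2.29, 1.54 and 3.42 CPM in CR_14h, against 4.54, 5.32 and 9.29 CPM in F_14h (-1.40 ± 0.47, adjusted p = 0.0372, edgeR). Parp14, an ADP-ribosyltransferase, had 17.9, 14.8 and 24.3 CPM in CR_14h, against 29.9, 30.0 and 40.2 CPM in F_14h (-0.81 ± 0.27, adjusted p = 0.0357, edgeR).

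Of the 4, each fit that left out CR_14h 1, CR_14h 2 or F_14h 3 kept 2, and the fit without the library labelled CR_14h 3 called 8. Without the 4 libraries nearest to another diet it was 16. Shares of all genes in these fits are not given here. The pathway genes Eif2ak2, Trim25, Parp9, Dtx3l, Lgals3bp, Znfx1 and Slfn5 were lower in CR_14h, as were Ifngr2, Tlr8, Tbk1 and Ptpn6. Psmb10, Psme1, Psme2, Ube2l6, Ikbke and Irf3 were higher. Parp9 averaged 34.9 ± 1.82 CPM in CR_14h and 74.6 ± 2.58 CPM in F_14h (SD, n = 3 each; -1.10 ± 0.17, adjusted p = 4.49e-05, edgeR). Lyve1 and Pecam1 of the endothelial markers were lower in CR_14h, and the sums of that list overlapped (186 to 255 CPM in CR_14h, 248 to 307 CPM in F_14h). Hepatocyte markers summed to 120200 to 158400 CPM in CR_14h and 88780 to 107500 CPM in F_14h, with Ttr called higher. The stellate cell marker Ngfr and the cholangiocyte marker Krt19 were also called higher. The part of these cells in the members' values was not tested.

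At 22 h Rsad2 alone was lower, at 1.80, 1.85, 5.55 and 1.99 CPM in CR_22h, against 5.52, 12.1 and 6.96 CPM in F_22h (-1.53 ± 0.37, adjusted p = 0.00753, edgeR), where 4.32% of all genes were lower. The library labelled CR_22h 3 just overlapped F_22h 1. The count was 12 without CR_22h 3, 17 (16 lower) without the 4 libraries nearest to another diet, 3 without F_22h 3, 0 without F_22h 2 and 0 in the 7 libraries alone. Shares of all genes called in these fits are not given here, so the counts have no background. Among pathway genes Eif2ak2, Parp9, Dtx3l, Lgals3bp, Znfx1, Tbk1, Ptpn6 and Adar were lower and Psmb10 was higher in CR_22h. Of the hepatocyte markers, Ttr was called higher and Apoa1 and Serpina1e lower in CR_22h. The cholangiocyte marker Spp1 was called higher and the neutrophil marker Ngp lower. The part of these cells in the members' values was not tested.

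Within the calorie-restricted livers, 11 members changed over 0, 6, 14 and 22 h, where 20.6% of all genes did, so 11 of 41 is near the background. They were Stat2, Ddx58, Ifih1, Dhx58, Oasl1, Rsad2, Cmpk2, Irgm1, Irgm2, Igtp and Gbp6. Ddx58 averaged 16.4 ± 1.16, 35.8 ± 5.82, 27.5 ± 6.76 and 14.6 ± 4.40 CPM at 0, 6, 14 and 22 h (SD, n = 2, 3, 3 and 4; adjusted p = 0.000701, edgeR). Oasl1 averaged 8.57 ± 1.27, 19.6 ± 5.49, 9.55 ± 4.52 and 3.38 ± 2.40 CPM (adjusted p = 0.000794, edgeR). Ddx58 and Oasl1 were highest at 6 h. Irgm1 averaged 47.4 ± 2.91, 52.7 ± 5.93, 41.7 ± 9.38 and 21.3 ± 7.61 CPM (adjusted p = 0.000373, edgeR), and Igtp 55.4 ± 7.17, 43.0 ± 8.40, 30.8 ± 8.80 and 18.3 ± 9.03 CPM (adjusted p = 0.00061, edgeR). Stat2 averaged 78.2 ± 13.6, 53 ± 17.2, 37.4 ± 22.5 and 34.2 ± 9.52 CPM at the 4 times (adjusted p = 0.0256, edgeR). All 5 of these genes had their lowest mean at 22 h. Of the 11, 8 were called in every fit without 1 library, and without the library labelled CR_22h 3 there were 22. The share of all genes in that last fit is not given here.

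In fasted livers Usp18 alone changed over 6, 14 and 22 h (12 members at an unadjusted p under 0.05), where 2.86% of all genes did. It had 6.33, 6.99 and 8.70 CPM in F_6h, 27.2, 21.2 and 36.0 CPM in F_14h, and 6.83, 7.80 and 5.43 CPM in F_22h (adjusted p = 0.000439, edgeR). The F_14h libraries lay above all other libraries of the series for this gene. The count was 2 without F_14h 1 or without F_22h 2. In AL livers no member changed over time (2 at an unadjusted p under 0.05, Igtp and Usp18; 0 with DESeq2), where 0.276% of all genes did.

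Close relatives share sequence, so reads of Gbp, Irg, Oas, Ifit and Tgtp1 genes may be divided among them by the estimate. The annotated Irgm2 gene on chromosome 11 (58199618 to 58222782, GRCm38) spans all of Igtp (58199556 to 58207591) but for its first bases, both on the plus strand, so values of these genes may not be independent. The libraries carry no strand, so antisense partners can share reads.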

How the data were processed

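Liver RNA was enriched for poly(A) and made into libraries without strand information, per the labels' protocols. Per the labels' protocols, the authors mapped 150-base paired reads with Bowtie to GRCm38 protein-coding genes, allowing 2 mismatches, and estimated expected counts per gene with RSEM 1.2.3. The deposited signal is TPM after a further normalization by the authors in EBSeq (labels' protocols), and its totals differ between libraries.

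Expected counts were rounded and tested with edgeR 4.0.16 (R 4.3.3): filterByExpr, TMM, quasi-likelihood F tests with 13 group means over 38 libraries, and Benjamini-Hochberg adjustment over 13786 genes at 0.05. CPM uses the TMM library sizes. Standard errors were derived as |log2 fold change|/√F. Counts of members at an unadjusted p under 0.05 stand without the share of all genes at that cut. They therefore have no background here. Totals ran from 17131292 to 30152277 counts. The scripts were tested on simulated data. DESeq2 1.42.0, limma 3.58.1 on the log2 signal, other filters and scalings, left-out libraries and a replicate block were tried.

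The members and gene lists were chosen with earlier results of these data known. Every member past the threshold was named, and where none passed, the 3 with the smallest p; pathway genes were named where they passed beside a called member, apart from a gene that is not reported here. A number was taken to pair libraries where every same-numbered pair deviated together with r above 0.1, which held for CR_missed and CR_fed (0.144, 0.2 and 0.15). Over all comparisons, 8 of 30 same-numbered pairs had r above 0.1. The reported test of CR_missed against CR_fed still used no pairing, and the block is given only as an alternative. Labelled ages were not used.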

Additional observations from a re-analysis of the deposited data

Results flagged for a closer look

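The group CR_22h, the only one with 4 libraries, was searched for a library far from the others in the members' median and in the 18 members called in a pair. In the library labelled CR_22h 3 the median deviation was 0.434 on the log2 scale, and the gap to the next library divided by the range exceeded Dixon's 95% critical value. The same library stood apart for Irgm2 at 49.3 CPM, for Rsad2 at 5.55 CPM and for Tgtp1 at 5.94 CPM. These were 4 of 19 values tested, where chance flags about 1 in 20 groups, and the values share libraries. Its profile over genes outside the interferon lists was nearest to AL_22h, and what set it apart was not tested.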

How the results depend on the processing

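Members called past the threshold out of 41 in the reported fits were 1 for F_6h minus AL_6h, 5 for F_14h minus AL_14h, 7 for F_22h minus AL_22h, 0 for CR_0h minus AL_0h, 0 for CR_6h minus AL_6h, 0 for CR_14h minus AL_14h, 10 for CR_22h minus AL_22h, 1 for CR_6h minus F_6h, 4 for CR_14h minus F_14h, 1 for CR_22h minus F_22h, 7 for CR_missed minus CR_fed, 0 for time in AL, 11 for time in CR, 1 for time in F, 0 for the fasting interaction, 0 for the restriction interaction. With DESeq2 size factors in place of TMM, the count was 2 for F_6h minus AL_6h and 3 for CR_22h minus F_22h. The DESeq2 test gave 4 for F_6h minus AL_6h, 11 for F_22h minus AL_22h, 2 for CR_0h minus AL_0h, 1 for CR_14h minus AL_14h, 16 for CR_22h minus AL_22h, 2 for CR_6h minus F_6h, 4 for CR_22h minus F_22h and 5 for time in F. With limma on log2(signal + 1), the count was 2 for F_6h minus AL_6h, 2 for CR_6h minus F_6h, 3 for CR_22h minus F_22h and 3 for time in F. Using limma with a pseudocount of 0.1, the count was 2 for F_6h minus AL_6h, 19 for CR_22h minus AL_22h, 2 for CR_6h minus F_6h, 3 for CR_22h minus F_22h and 3 for time in F. Using limma with no minimum mean, the count was 2 for CR_6h minus F_6h, 2 for CR_22h minus F_22h and 2 for time in F. Fits to the compared libraries alone gave 9 for F_6h minus AL_6h, 12 for F_14h minus AL_14h, 15 for F_22h minus AL_22h, 0 for CR_22h minus AL_22h, 2 for CR_6h minus F_6h, 2 for CR_14h minus F_14h, 0 for CR_22h minus F_22h, 12 for CR_missed minus CR_fed, 6 for time in CR and 9 for time in F. Without the 4 libraries nearest to another diet, the count was 4 for CR_0h minus AL_0h, 4 for CR_6h minus AL_6h, 21 for CR_14h minus AL_14h, 36 for CR_22h minus AL_22h, 3 for CR_6h minus F_6h, 16 for CR_14h minus F_14h, 17 for CR_22h minus F_22h, 22 for time in CR and 2 for the restriction interaction. Without AL_0h 2 and AL_22h 2, the count was 4 for F_22h minus AL_22h and 6 for CR_22h minus AL_22h. Without all 6 of these, the count was 11 for F_22h minus AL_22h, 1 for CR_0h minus AL_0h, 4 for CR_6h minus AL_6h, 24 for CR_14h minus AL_14h, 34 for CR_22h minus AL_22h, 3 for CR_6h minus F_6h, 16 for CR_14h minus F_14h, 17 for CR_22h minus F_22h and 22 for time in CR. With the trend on transcript length removed, the count was 3 for F_6h minus AL_6h, 2 for CR_6h minus F_6h, 2 for CR_14h minus F_14h, 2 for CR_22h minus F_22h and 3 for time in F. Leaving out 1 library at a time gave 0 to 0 for F_6h minus AL_6h, 2 to 7 for F_14h minus AL_14h, 1 to 6 for F_22h minus AL_22h, 0 to 1 for CR_0h minus AL_0h, 0 to 4 for CR_14h minus AL_14h, 3 to 32 for CR_22h minus AL_22h, 0 to 2 for CR_6h minus F_6h, 2 to 8 for CR_14h minus F_14h, 0 to 12 for CR_22h minus F_22h, 4 to 7 for CR_missed minus CR_fed, 8 to 22 for time in CR, 1 to 2 for time in F. Counts not listed stayed within 1.5 times. A count from an alternative fit that stands without a share of all genes has no background beside it. Such shares can move with the fit. Genes lower in CR_22h minus AL_22h went from 2.31% to 6.43% without the library labelled CR_22h 3. For members called in a pair, the call under an alternative was kept 474 times and missed 139 times, and the fold change never changed sign. For members called over time, the call was kept 249 times and missed 22 times. The cause of these shifts was not tested, except that fits with fewer libraries hold fewer samples. The alternatives that leave out libraries by profile, remove the length trend or block the 6 meal libraries were chosen after seeing the data.

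With the replicate number as a block, the count was 5 for F_6h minus AL_6h, 8 for F_14h minus AL_14h, 1 for CR_14h minus AL_14h, 5 for CR_22h minus AL_22h, 2 for CR_6h minus F_6h, 3 for CR_22h minus F_22h and 3 for time in F, and 15 for CR_missed minus CR_fed in its 6 libraries, where 8 were called over all libraries. Outside that comparison same-numbered libraries did not deviate together in every pair, so the samples share only a number. The block changed no other count by more than 1.5 times. Low counts limit the precision of Oas3 and Oas2, the members with the lowest levels, and left the interferon genes untested.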
